A study of Homo sapiens with 6 samples.

Results

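The proteasome genes described here are 44 genes, taken by their symbols out of the 60662 genes with a value. They cover the 20S core, the 19S regulatory particle, the activators that can cap the core in its place, an inhibitor of the core and the chaperones that help to assemble both particles. All 44 were found, and all 44 passed the filter on low values. The cells were HCT116 cells, an established human colorectal cancer line, transduced with lentivirus and carrying either a nontarget control shRNA (shCtrl) or an shRNA against the long noncoding RNA GMDS-AS1 (GMDS-AS1 shRNA2, here KD). Poly-A RNA was sequenced in 3 libraries of each group, and the labels name no further treatment. The knockdown rests on 1 shRNA in 1 cell line, so that the loss of GMDS-AS1 and any other effect of this shRNA cannot be told apart. The labels number the libraries as biological replicates without saying how the cultures were separated, so the p-values measure the spread between these libraries, which may be partly technical.

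The proteasome is the large protease that removes most short-lived and misfolded proteins of the cytosol and nucleus after they have been tagged with ubiquitin. Its 20S core is a barrel of stacked rings, with alpha subunits forming the outer rings and the gate and beta subunits forming the inner rings with the cleaving sites. The 19S particle sits at the ends of the barrel, where its base unfolds the substrate with ATP and its lid removes the ubiquitin. When proteasome activity falls, the transcription factor NRF1, made from the gene NFE2L1, is known to raise transcription of most subunit genes together, through antioxidant response elements in their promoters. The study also asked how the RNA-binding protein HuR is degraded in these cells, a question to which the levels of these genes are background.

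The antioxidant response element that NRF1 reads was looked for first, because it is the known element of NRF1 in promoters of subunit genes. The core TGACNNNGC, where N is any base, was searched on both strands in the 250 bases before each start in the RefSeq promoter table for GRCh38.p14. The table held 38 of the 44 genes, with 46 windows. The core was found in 12 of these windows (26.1%), which belong to 12 genes, against 10.9% of the 35116 windows of all genes. The windows of all genes were not limited to genes expressed in these cells, and the share among genes of similar level was not computed. The following stretches show it for genes that were higher, not called and lower in KD cells, read 5′ to 3′ on the strand of the gene with the core in capitals.
PSMB3: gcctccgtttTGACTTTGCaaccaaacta
PSMD3: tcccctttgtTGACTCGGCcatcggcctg
PSMD12: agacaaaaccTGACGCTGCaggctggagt
PSMG1: gcccagggcaTGACAGCGCgggcgggcgg
PSMA4: gtgggcacgaTGACTCTGCaccgcctcct
PSME2: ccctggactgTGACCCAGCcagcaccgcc

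The PSMB3 stretch lies at chr17:38752627-38752655 on the forward strand, with its core beginning 104 bases before the start. The PSMD3 stretch lies at chr17:39980760-39980788 on the forward strand, and its core begins 37 bases before the start. The PSMD12 stretch is at chr17:67366724-67366752 on the reverse strand (165 bases), that of PSMG1 at chr21:39183616-39183644 on the reverse strand (183 bases) and that of PSME2 at chr14:24146767-24146795 on the reverse strand (175 bases). The PSMA4 stretch is at chr15:78540650-78540678 on the forward strand (126 bases). The stretches of PSMA4, PSMG1 and PSME2 lie before RefSeq starts that are inside the genes as GENCODE v29 draws them. A match of this core is a description of the letters and was not tested as a binding site. The median log2 fold change was 0.44 over the 12 genes with the core and 0.46 over the 26 genes without it, a description with no test. Of the 12 genes with it, 8 were higher, 1 was lower and 3 were not called in the main fit described below. In that fit 36 of all 44 genes (81.8%) were higher, 3 were lower and 5 were not called. Of all genes tested 28.5% were higher and 25.9% were lower. The box CCAAT, which the factor NF-Y reads, was in 37.0% of the proteasome windows and in 32.0% of all windows, and matches of the 2 motifs were counted separately.

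Levels are given in TPM, a unit scaled to transcript length and to the library total, which holds no count of reads and leaves the depth of each library unknown. Across genes, which are no independent replicates, the libraries of a group had a Pearson's r of 0.997 to 1.00 on TPM without a log transform. For libraries of different groups it was 0.969 to 0.976, and abundant genes weigh most in such an r. The targeted GMDS-AS1 (ENSG00000250903, listed as GMDS-DT) had 1.66, 2.21 and 1.34 TPM in shCtrl cells against 0.88, 0.91 and 0.79 TPM in KD cells, and the groups did not overlap. It was lower by -0.41 on the log2 scale (limma adjusted p = 0.0407, standard error, SE, 0.14), and its value was -0.39 (limma adjusted p = 0.149) without the filter on low values. At such low levels the added pseudocount of 1 TPM understates a change. With a pseudocount of 0.1 GMDS-AS1 was at -0.68 (limma adjusted p = 0.0418). With the replicate number as a block it was not called (limma adjusted p = 0.0518), and it was called without shCtrl replicate 3 but not without any of the other 5 libraries, where its value was -0.30 to -0.44 (limma adjusted p = 0.0714 to 0.117). GMDS, the GDP-mannose dehydratase gene beside it, was lower by -0.77 on the log2 scale (limma adjusted p = 0.00624). The epithelial markers were present, with EPCAM at 141 to 165 TPM over the 6 libraries, although 3 of the 5, KRT8, KRT18 and KRT19, were lower in KD cells. Of the markers of other cells, PTPRC was listed at 0 in every library, CD3E, COL1A2, PECAM1 and CDH5 were at 0.40 TPM or less, and COL1A1 was at 10.0 to 14.4 TPM.

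Most proteasome genes were higher in GMDS-AS1 KD cells, by less than 2-fold, while PSME2, PSME3 and PSMD10 were lower. With the libraries scaled by a trimmed mean, 36 of the 44 genes were higher, 3 were lower and 5 were not called at an adjusted p under 0.05 from limma with the Benjamini-Hochberg adjustment over 16901 genes. The median log2 fold change of the 44 genes was 0.45, in a range from -0.33 for PSME2 to 0.90 for PSMA3. In the same fit 28.5% of all genes tested were higher and 25.9% were lower, with a median of -0.00. None of the 44 was past a 2-fold change, where 7.17% of all genes tested were. Every proteasome gene is well expressed, with a mean of at least 24.2 TPM over the 6 libraries, so the 5092 genes with a mean of at least 20 TPM are the closer background, a threshold set after the values were seen. Of these abundant genes 53.4% were higher and 22.1% were lower, with a median of 0.19. The 44 genes thus stood at a median 0.25 above that of genes of similar level, and 32 of them were above it. Bulk RNA gives the average of a culture, in which fewer cells of a kind and less RNA per cell cannot be told apart.

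How many of the genes count as higher depended on the scaling between libraries, because the trimmed mean raised KD values relative to shCtrl values. It divided the shCtrl libraries by factors of 1.08 to 1.10 and the KD libraries by 0.906 to 0.927. The median log2 fold change of all genes tested was -0.002 after this step and -0.20 with TPM as deposited. With TPM as deposited, 25 proteasome genes were higher and 8 were lower, with a median log2 fold change of 0.20, beside 16.3% higher and 40.3% lower of all genes tested and 32.2% higher and 39.2% lower of the abundant genes. Scaling on the abundant genes alone, an alternative chosen after the data were seen, gave 30 higher and 7 lower. The distance between the median of the proteasome genes and that of the abundant genes hardly moved, and it was 0.22 to 0.25 in all 16 settings run. The same 25 genes were called higher and the same 3 genes, PSME2, PSME3 and PSMD10, were called lower in every one of these settings. The other 16 genes changed their call or were not called in at least 1 setting, and POMP alone was called in both directions.

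In TPM as deposited, without any test, every KD library was above every shCtrl library for 27 of the 44 genes and below for 10, and the groups overlapped for 7. Over all genes tested these shares were 18.8% above and 44.9% below. The 44 genes together took 0.634%, 0.624% and 0.608% of the total TPM in the shCtrl libraries and 0.673%, 0.673% and 0.684% in the KD libraries. Their summed level was 6169 ± 130 TPM in shCtrl and 6718 ± 65.4 TPM in KD cells (SD, n = 3), a difference of 8.89%. Transcripts of the mitochondrial genome took 15.2% to 16.4% of the total in shCtrl and 15.6% to 16.6% in KD libraries, and their part in these shares was not tested.

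**Figure D1:**
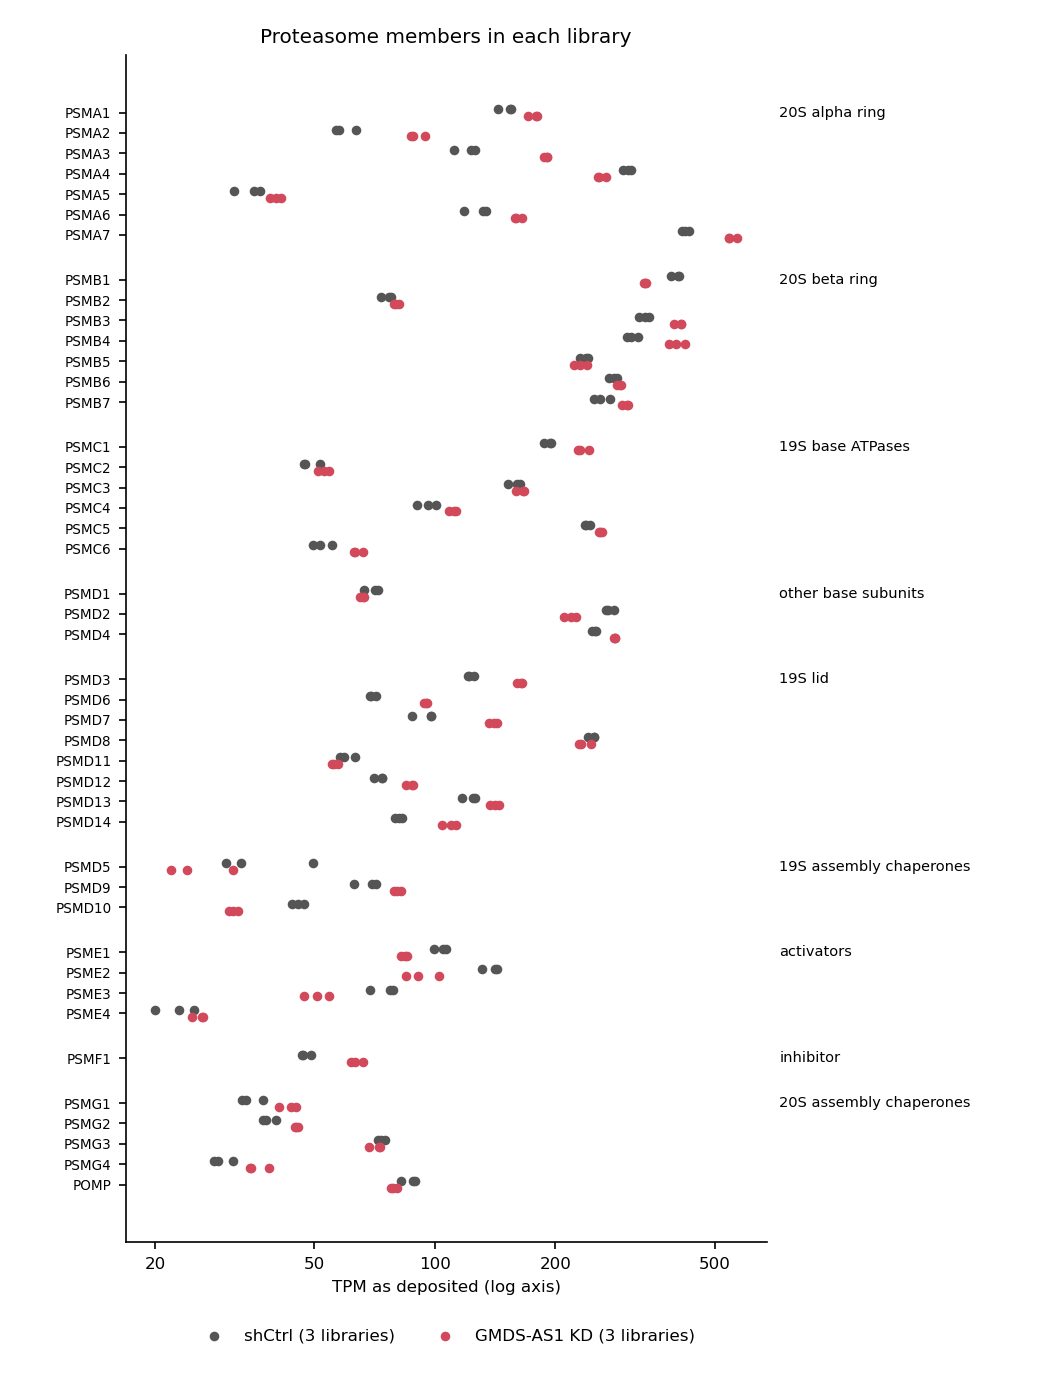
Level of each of the 44 proteasome genes in each library, in TPM as deposited on a log axis, with 3 shCtrl libraries (grey) and 3 KD libraries (red) per gene, grouped by place in the complex. The KD points of PSMA2, PSMA3, PSMD7 and PSMF1 lie to the right of the shCtrl points, and those of PSME1, PSME2, PSME3 and PSMD10 lie to the left.

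The alpha ring, which forms the outer wall and the gate of the 20S core, held the 2 largest rises of the 44 genes. Of its 7 genes, 6 were higher under every scaling, with a ring median of 0.57 on the log2 scale, and its summed level went from 1220 ± 30.1 to 1469 ± 28.2 TPM (SD, n = 3), or by 20.5%. PSMA3 (ENSG00000100567, chromosome 14 from 58244831 to 58272012, forward strand) was at 111.49, 126.01 and 122.97 TPM in shCtrl and at 190.32, 187.7 and 190.65 TPM in KD libraries. Its groups were far apart, and the KD libraries lay closer to each other than the shCtrl libraries did. It had the largest log2 fold change of the 44 genes, 0.90 (limma adjusted p = 1.10e-05, SE 0.049), and 0.66 with TPM as deposited.

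PSMA2 (ENSG00000106588, chromosome 7 from 42916857 to 42932223, reverse strand) was at 63.61, 56.54 and 57.73 TPM in shCtrl and at 94.67, 87.4 and 88.28 TPM in KD libraries, without overlap. It was higher by a log2 fold change of 0.84 (limma adjusted p = 2.35e-05, SE 0.054). PSMA2 shares exon bases with MRPL32 on the other strand (log2 fold change 0.53) and with ENSG00000256646 on its own strand (0.36), and the strand setting of the authors' counting is not given in the sources used here, so reads of these genes may be mixed. PSMA7, the most abundant of the 44 genes, was at 422.22, 431.96 and 415.23 TPM in shCtrl and at 543.45, 541.77 and 570.11 TPM in KD libraries. It was higher by a log2 fold change of 0.63 (limma adjusted p = 2.68e-06, SE 0.024).

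PSMA1 (0.47), PSMA5 (0.45) and PSMA6 (0.57) were higher by these log2 fold changes, with adjusted p of 2.93e-05, 0.000673 and 4.90e-05 from limma. PSMA4 (ENSG00000041357) was the gene of the ring not called higher. It was at 309.53, 303.6 and 295.91 TPM in shCtrl and at 256.89, 256.16 and 267.47 TPM in KD libraries, so that the KD libraries were the lower ones in TPM as deposited. Its log2 fold change was 0.03 (limma adjusted p = 0.387, SE 0.025) after the trimmed mean and -0.22 (limma adjusted p = 0.000777) with TPM as deposited.

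A ratio of 2 genes within a library does not depend on the scaling between libraries. PSMA3 stood at 36.0%, 41.5% and 41.6% of the TPM of PSMA4 in shCtrl libraries and at 74.1%, 73.3% and 71.3% in the KD libraries. The groups were apart, with a log2 difference of 0.88 and an SD of 0.12 over the shCtrl and 0.029 over the KD libraries (n = 3). This pair and the next were picked after their values had been seen, so their ratios are a description. For PSMA2 against PSMA4 the log2 difference was 0.82.

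The beta ring carries the cleaving sites, and its changes covered a lower range. Of its 7 genes 6 were called higher after the trimmed mean, with a median log2 fold change of 0.32, but 3 with TPM as deposited, and its summed level went from 1898 ± 47.5 to 2043 ± 29.6 TPM (SD, n = 3), or by 7.65%. PSMB5, PSMB6 and PSMB7 are the catalytic subunits, with the chymotrypsin-like, caspase-like and trypsin-like activity in this order. PSMB5 (ENSG00000100804, chromosome 14 from 23016543 to 23035230, reverse strand) was at 238.94, 240.92 and 230.9 TPM in shCtrl and at 230.1, 223.25 and 240.12 TPM in KD libraries. These groups overlapped, and the call rests on the scaling. Its log2 fold change was 0.21 (limma adjusted p = 0.00068, SE 0.027) after the trimmed mean and -0.04 (limma adjusted p = 0.416) with TPM as deposited.

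PSMB6 (ENSG00000142507, chromosome 17 from 4796144 to 4798503, forward strand) was at 279.81, 284.72 and 271.87 TPM in shCtrl and at 291.1, 290.52 and 285.47 TPM in KD libraries. The groups did not overlap but the gap was small. PSMB6 was higher by 0.30 on the log2 scale (limma adjusted p = 9.03e-05, SE 0.026), and 0.05 (limma adjusted p = 0.138) with TPM as deposited. PSMB7 (ENSG00000136930, chromosome 9 from 124353466 to 124415444, reverse strand) was at 273.8, 258.96 and 249.59 TPM in shCtrl and at 301.8, 293.15 and 303.87 TPM in KD libraries. It was higher under both scalings, by 0.45 (limma adjusted p = 4.27e-05, SE 0.033) and by 0.20 (limma adjusted p = 0.00384) with TPM as deposited.

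Among the beta subunits without a cleaving site of their own, PSMB3 (0.53) and PSMB4 (0.62) were higher under every scaling. PSMB4 went from 311 ± 9.36 to 402 ± 17.6 TPM (SD, n = 3). PSMB2 was higher after the trimmed mean by a log2 fold change of 0.32 (limma adjusted p = 0.000438, SE 0.038), and its value was 0.08 (limma adjusted p = 0.0991) with TPM as deposited. PSMB1 (ENSG00000008018) was the gene of this ring not called higher. It was at 404.15, 408.6 and 388.29 TPM in shCtrl and at 336.18, 332.74 and 335.63 TPM in KD libraries, with a log2 fold change of -0.01 (limma adjusted p = 0.734, SE 0.022) after the trimmed mean and of -0.26 (limma adjusted p = 0.000221) with TPM as deposited.

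**Figure D2:**
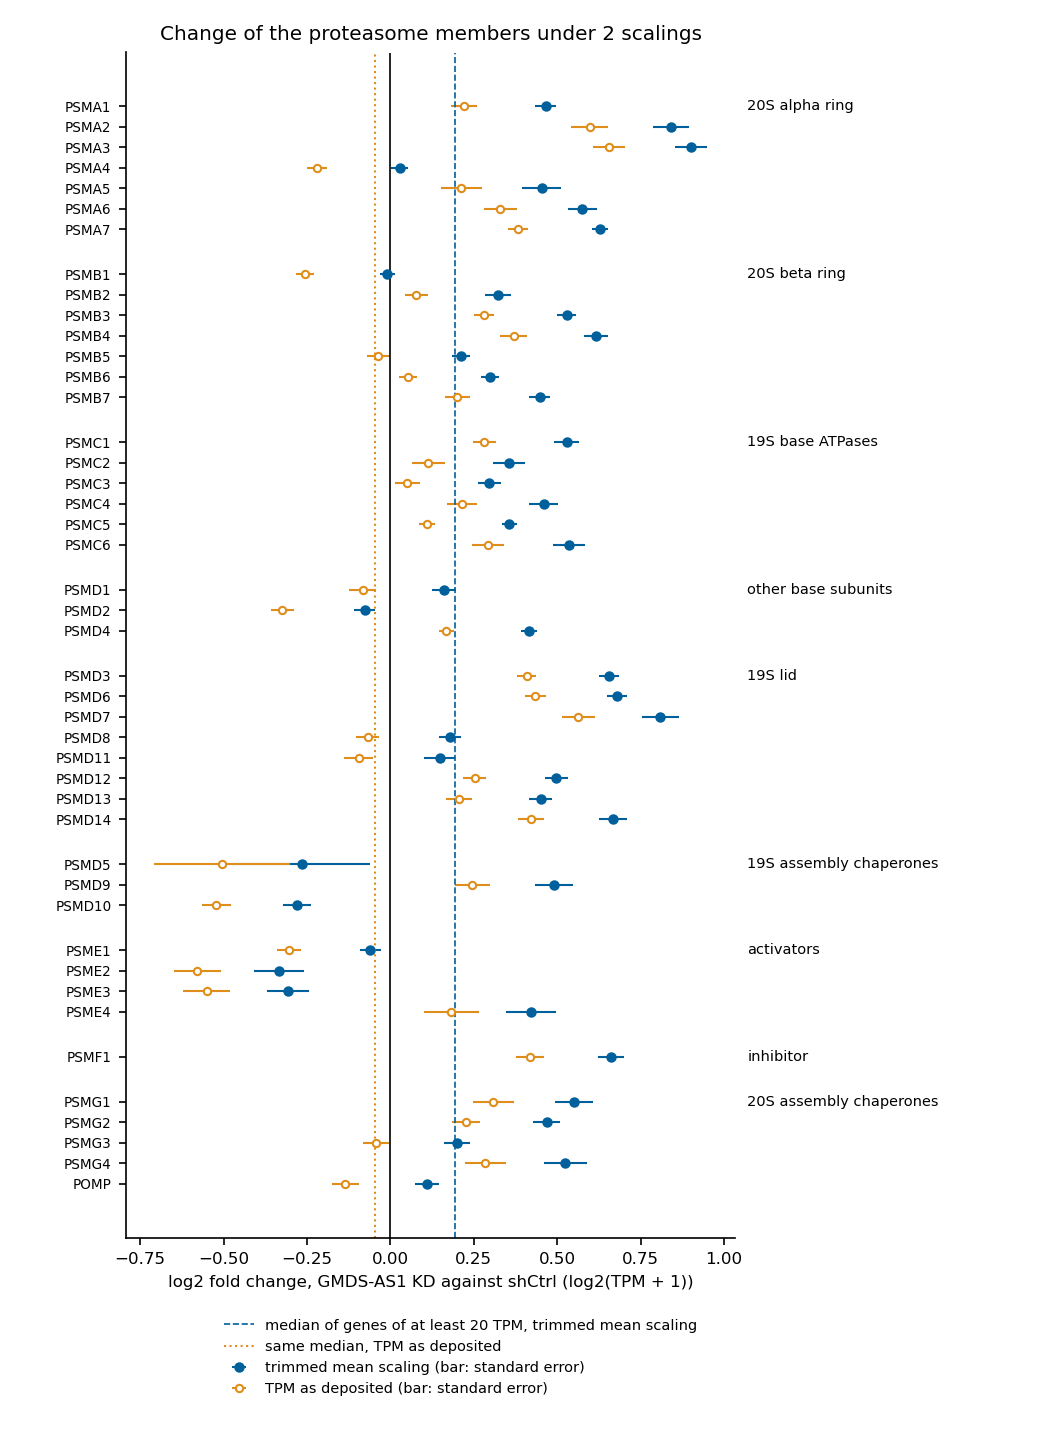
Log2 fold change of KD against shCtrl for the 44 genes after trimmed mean scaling (filled) and with TPM as deposited (open), with standard errors as bars and the median of the genes of at least 20 TPM as a vertical line for each scaling. PSME1, PSME2, PSME3, PSMD5 and PSMD10 lie to the left of that line under both scalings. PSMA4, PSMB1, PSMD1, PSMD2, PSMD8, PSMD11 and POMP do so as well, and PSMA3 lies farthest to the right.

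The 6 ATPases of the 19S base form the ring that unfolds the substrate and threads it into the core, and their changes lay in a narrow range. All 6 were higher after the trimmed mean, with log2 fold changes from 0.30 (PSMC3) to 0.54 (PSMC6), and their summed level went from 787 ± 19.7 to 884 ± 6.55 TPM (SD, n = 3), or by 12.4%. PSMC6 was at 55.26, 49.56 and 51.59 TPM in shCtrl and at 66.03, 62.9 and 63.21 TPM in KD libraries. With TPM as deposited 4 of the 6 were higher. PSMC2 (0.36, limma adjusted p = 0.000809) and PSMC3 (0.30, adjusted p = 0.000403) had values of 0.11 (adjusted p = 0.093) and 0.05 (adjusted p = 0.284) with TPM as deposited, and their groups overlapped. For PSMC1, 0.53 on the log2 scale, reads may be shared with copies of the gene, and the pseudogene PSMC1P5 was listed at 14.37, 33.66 and 35.66 TPM in shCtrl and at 67.32, 0 and 55.81 TPM in KD libraries. Of the 43 listed pseudogenes of the 44 genes, PSMC1P1 and PSMC1P5 were the 2 with a mean of at least 1 TPM.

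The base also holds the scaffold subunits PSMD1 and PSMD2 and the ubiquitin receptor PSMD4, of which 2 were called higher after the trimmed mean and 1 with TPM as deposited. PSMD4, which binds ubiquitin chains, was higher by 0.41 (limma adjusted p = 1.53e-05), and by 0.17 (limma adjusted p = 0.000751) with TPM as deposited. PSMD2 (ENSG00000175166), a docking site for shuttle factors, was at 280.6, 271.0 and 267.46 TPM in shCtrl and at 225.41, 210.01 and 218.42 TPM in KD libraries, each KD library below each shCtrl library. Its log2 fold change was -0.08 (limma adjusted p = 0.067, SE 0.030) after the trimmed mean and -0.32 (limma adjusted p = 0.000261) with TPM as deposited. PSMD1 was called higher by 0.16 (limma adjusted p = 0.0079, SE 0.035), although its TPM as deposited were 70.79, 72.12 and 66.66 in shCtrl and 64.87, 66.28 and 66.36 in KD libraries, a log2 fold change of -0.08 (limma adjusted p = 0.112).

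The lid, which holds the deubiquitinase PSMD14 and positions the substrate, was higher in all 8 genes after the trimmed mean and in 6 with TPM as deposited, with a median log2 fold change of 0.58 after the trimmed mean. Its summed level went from 871 ± 12.5 to 1027 ± 9.25 TPM (SD, n = 3), or by 18.0%. PSMD7 (ENSG00000103035, chromosome 16 from 74296775 to 74306288, forward strand), the partner of PSMD14 in the catalytic pair, was at 98.06, 87.64 and 98.08 TPM in shCtrl and at 140.66, 142.76 and 136.78 TPM in KD libraries. The groups were far apart, and the log2 fold change was 0.81 (limma adjusted p = 3.21e-05, SE 0.056), or 0.56 with TPM as deposited. PSMD14 itself was higher by 0.67 (limma adjusted p = 2.31e-05). PSMD6 (ENSG00000163636, chromosome 3 from 64010549 to 64024010, reverse strand), a scaffold subunit of the lid, was at 71.47, 69.45 and 68.67 TPM in shCtrl and at 93.72, 95.05 and 95.52 TPM in KD libraries. It had the smallest SE of the 4 largest rises, with a log2 fold change of 0.68 (limma adjusted p = 4.67e-06, SE 0.030).

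PSMD3 (0.65), PSMD12 (0.50) and PSMD13 (0.45), further scaffold subunits, were higher under every scaling. The call of 2 lid genes rests on the scaling. PSMD8 was at 249.36, 241.86 and 249.89 TPM in shCtrl and at 232.22, 229.15 and 245.63 TPM in KD libraries, with a log2 fold change of 0.18 (limma adjusted p = 0.00314, SE 0.032) after the trimmed mean and of -0.07 (limma adjusted p = 0.129) with TPM as deposited. For PSMD11, which stabilizes the assembled particle, these values were 0.15 (limma adjusted p = 0.0314, SE 0.046) and -0.10 (limma adjusted p = 0.0949). Within a library PSMD7 stood at 34.9%, 32.3% and 36.7% of the TPM of PSMD2 in shCtrl and at 62.4%, 68.0% and 62.6% in KD libraries, a log2 difference of 0.89 in a pair picked after its values had been seen.

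The 3 chaperones that guide assembly of the 19S base split. PSMD9, also called p27, was higher by 0.49 (limma adjusted p = 0.000372). PSMD10, known as gankyrin and as an oncoprotein that binds the retinoblastoma protein, was lower under every scaling. PSMD10 (ENSG00000101843, chromosome X from 108084207 to 108091618, reverse strand) was at 46.98, 45.42 and 44.06 TPM in shCtrl and at 30.62, 32.3 and 31.24 TPM in KD libraries, a log2 fold change of -0.28 (limma adjusted p = 0.00146, SE 0.043), or -0.52 with TPM as deposited. PSMD5 was at 49.65, 30.13 and 32.79 TPM in shCtrl and at 31.38, 24.09 and 21.95 TPM in KD libraries. It varied most between replicates, its first shCtrl library lay above the rest, and its log2 fold change of -0.27 (limma adjusted p = 0.314, SE 0.20) was not called.

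Of the 4 activators 2 were lower, 1 was higher and 1 was not called after the trimmed mean, and 3 were lower with TPM as deposited. PSME1 and PSME2 build the 11S activator (PA28 alpha and beta), which interferon gamma is known to induce and which serves antigen processing, PSME3 builds the nuclear PA28 gamma, and PSME4 is PA200. Their summed level went from 340 ± 17.5 to 253 ± 5.33 TPM (SD, n = 3), a difference of -25.6% in TPM as deposited. PSME2 (ENSG00000100911, chromosome 14 from 24143362 to 24147570, reverse strand) was at 143.2, 141.19 and 131.28 TPM in shCtrl and at 84.75, 102.34 and 90.97 TPM in KD libraries. It had the lowest log2 fold change of the 44 genes, -0.33 (limma adjusted p = 0.00829, SE 0.074), or -0.58 with TPM as deposited.

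PSME3 (ENSG00000131467, chromosome 17 from 42824385 to 42843758, forward strand) was at 78.67, 77.37 and 68.83 TPM in shCtrl and at 54.43, 47.22 and 50.85 TPM in KD libraries, without overlap. It was lower by -0.31 on the log2 scale (limma adjusted p = 0.00552, SE 0.063), while BECN1, which shares exon bases with it on the other strand, had 0.35. PSME1 was at 106.62, 104.84 and 99.68 TPM in shCtrl and at 82.13, 83.98 and 85.16 TPM in KD libraries. The KD libraries were all lower as deposited, with a log2 fold change of -0.06 (limma adjusted p = 0.163, SE 0.032) after the trimmed mean and of -0.30 (limma adjusted p = 0.00042) with TPM as deposited. The partners PSME1 and PSME2 did not keep their ratio, a description in a pair picked after its values had been seen, as the TPM of PSME1 stood at 74.5%, 74.3% and 75.9% of that of PSME2 in shCtrl and at 96.9%, 82.1% and 93.6% in KD libraries.

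PSME4 went the other way and had the lowest mean level of the 44 genes. It was at 22.95, 25.03 and 20 TPM in shCtrl and at 26.36, 24.78 and 26.15 TPM in KD libraries, with a log2 fold change of 0.42 (limma adjusted p = 0.00297, SE 0.075) after the trimmed mean and of 0.18 (limma adjusted p = 0.0978) with TPM as deposited. PSMF1, the inhibitor PI31, was higher under every scaling. It was at 48.94, 46.93 and 46.44 TPM in shCtrl and at 61.68, 63.21 and 66.32 TPM in KD libraries, a log2 fold change of 0.66 (limma adjusted p = 1.55e-05, SE 0.039).

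The chaperones of the 20S core were higher after the trimmed mean in all 5 cases, with a median of 0.47, but 2 of these calls rest on the scaling. PSMG1 (0.55), PSMG2 (0.47) and PSMG4 (0.52), which build the alpha ring in pairs with their partners, were higher under every scaling. PSMG3 was called higher by 0.20 (limma adjusted p = 0.00432, SE 0.039), with -0.04 (limma adjusted p = 0.371) as deposited. POMP, the factor that joins the rings and is destroyed by the finished core, was at 89.29, 88.31 and 82.36 TPM in shCtrl and at 80.35, 78.46 and 77.53 TPM in KD libraries. It was called higher by 0.11 (limma adjusted p = 0.0402, SE 0.037) after the trimmed mean and lower by a log2 fold change of -0.14 (limma adjusted p = 0.0256) with TPM as deposited, so no direction can be given for it.

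The subunits of one particle are used in equal numbers, but their RNA levels were spread over a wide range. Over the 31 structural subunits the TPM in a library ran from 31.5 to 36.7 (PSMA5 in each shCtrl library) up to 415 to 432 (PSMA7), with a median of 125 to 134 in shCtrl, and from 38.8 to 41.2 up to 542 to 570 with a median of 164 to 167 in KD libraries. The SD of log2 TPM over these subunits was 1.01 to 1.03 in shCtrl and 0.964 to 0.977 in KD libraries, so the KD levels were slightly closer to each other in every library. Over the 44 genes, the log2 fold change had a Pearson's r of 0.087 and a Spearman's rho of 0.040 with the log2 mean TPM, and of -0.12 and -0.063 with the log2 length of the longest protein-coding transcript. These are descriptions over 44 genes of the same 6 libraries.

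Transcript length is given beside these changes because the abundant genes moved with it. With these split into 3 equal classes by length, the median log2 fold change was 0.29 and 62.7% were higher in the shortest class (up to 2082 bases), 0.20 and 54.7% in the middle class, and 0.11 and 45.1% in the longest class. Of the 44 proteasome genes 26 were in the shortest class, with a median of 0.45 and 22 higher, 9 were in the middle class (0.36, 6 higher) and 9 in the longest class (0.45, 8 higher). The median of the proteasome genes was above that of the abundant genes in each class, and the part of length in their change was not tested.

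The immunoproteasome replaces the 3 catalytic subunits by PSMB8, PSMB9 and PSMB10, which interferons are known to induce, and PSMB8 was at 1.16 TPM or less in these cells. Of this list of 5, which also has the thymus and testis subunits PSMB11 and PSMA8, 4 were tested, 1 was lower and none was higher. PSMB9 (ENSG00000240065, chromosome 6 from 32844136 to 32859585, forward strand) was at 12.56, 13.25 and 9.88 TPM in shCtrl and at 4.05, 3.63 and 4.7 TPM in KD libraries. After the trimmed mean it was the only gene of the pathway lists past a 2-fold change, where BACH1, PAAF1, MAFF and FBXW7 also were with TPM as deposited, and it had a log2 fold change of -1.11 (limma adjusted p = 0.000295, SE 0.12).

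PSMB10 was at 65.45, 67.09 and 56.77 TPM in shCtrl and at 43.69, 51.12 and 56.5 TPM in KD libraries, with a log2 fold change of -0.08 (limma adjusted p = 0.537) after the trimmed mean and of -0.32 (limma adjusted p = 0.0332) with TPM as deposited. PSMB8 was at 1.16, 0.57 and 0.61 TPM in shCtrl and at 0.84, 0.50 and 0.66 TPM in KD libraries, too low to show a change (0.02, limma adjusted p = 0.94). The exchange of catalytic subunits was compared as ratios within each library. PSMB9 stood at 4.49%, 4.65% and 3.63% of the TPM of PSMB6 in shCtrl and at 1.39%, 1.25% and 1.65% in KD libraries, a log2 difference of -1.58 with SDs of 0.19 and 0.20 (exact permutation test, p = 0.1, adjusted p = 0.15 over 3 ratios).

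PSMB10 stood at 23.9%, 25.9% and 22.7% of PSMB7 in shCtrl and at 14.5%, 17.4% and 18.6% in KD libraries, a log2 difference of -0.53 (exact permutation test, p = 0.1, adjusted p = 0.15). For PSMB8 against PSMB5 the log2 difference was -0.14 (exact permutation test, p = 0.7). In both PSMB9 and PSMB10 every KD library lay below every shCtrl library, and 3 libraries against 3 cannot give a p under 0.1, which is the smallest these tests allow.

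The other genes of the pathway, from lists set by function, moved in both directions. Of the tested genes on these 5 lists, the immunoproteasome list included, 36 in all, 16 were higher and 10 were lower after the trimmed mean, beside 28.5% and 25.9% of all genes tested. With TPM as deposited 7 were higher and 15 were lower, beside 16.3% and 40.3% of all genes tested. Of the genes of at least 20 TPM, 53.4% were higher and 22.1% lower after the trimmed mean. With TPM as deposited these shares were 32.2% and 39.2%, and the pathway genes lie on both sides of that level. Among the 10 regulators of proteasome gene expression 3 were higher, 5 were lower and 2 were not called, and with TPM as deposited 1 was higher and 6 were lower. NFE2L1 (ENSG00000082641), the gene of NRF1, was at 117.81, 121.24 and 110.55 TPM in shCtrl and at 80.15, 75.36 and 74.87 TPM in KD libraries, without overlap. This is a log2 fold change of -0.35 (limma adjusted p = 0.000446, SE 0.042). NRF1 protein was not measured here, and whether it had a part in the levels of the subunit genes was not tested. The genes named in the rest of this section were picked after their values had been seen. NFE2L2, the gene of NRF2, was lower by a log2 fold change of -0.61 (limma adjusted p = 1.42e-05), and NGLY1, which deglycosylates NRF1, was higher by 0.36 (limma adjusted p = 0.00272), with 0.12 (limma adjusted p = 0.132) as deposited.

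Of the small MAF partners of NRF1 and NRF2, MAFF was lower (-0.84, limma adjusted p = 2.64e-05) and MAFK was higher (0.72, limma adjusted p = 1.57e-05). MAFG, with a mean of 1.68 TPM in shCtrl and 1.05 TPM in KD libraries, was not called (-0.29, limma adjusted p = 0.380). BACH1, a repressor at the same elements, was lower by a log2 fold change of -0.92 (limma adjusted p = 0.00591), and FBXW7, a ubiquitin ligase subunit, by -0.79 (limma adjusted p = 0.00852). Among 10 further proteins that bind the proteasome, 3 were higher and 3 were lower after the trimmed mean, beside 28.5% and 25.9% of all genes tested. With TPM as deposited 1 was higher and 5 were lower, beside 16.3% and 40.3%. SEM1 was called higher after the trimmed mean (0.15, limma adjusted p = 0.0162) and lower as deposited (-0.096, limma adjusted p = 0.0444). TXNL1 was higher after the trimmed mean (0.19, limma adjusted p = 0.00935) and not called as deposited (-0.052, limma adjusted p = 0.295). UBE3C, a ligase on the particle, was lower by -0.60 (limma adjusted p = 6.78e-05) and PAAF1, which holds free 19S ATPases, by -0.89 (limma adjusted p = 0.00806), while the ubiquitin receptor ADRM1 was higher by 0.35 (limma adjusted p = 0.000103).

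Upstream of the particle, of the 8 tested genes among the shuttle factors and the VCP complex 7 were higher and 1 was lower after the trimmed mean, and 3 were higher and 1 lower with TPM as deposited. VCP, the ATPase that extracts ubiquitinated proteins, was at 90.78, 84.73 and 84.94 TPM in shCtrl and at 124.17, 124.29 and 124.66 TPM in KD libraries (0.76, limma adjusted p = 5.42e-06). Its cofactors NPLOC4 (0.82, limma adjusted p = 9.68e-06) and UFD1 (0.44, limma adjusted p = 0.000106) were higher as well, and all members of this trio were higher with TPM as deposited. The shuttle factor RAD23B was lower by -0.24 (limma adjusted p = 0.00397). Of the ubiquitin genes and activating enzymes 4 were tested and 3 were higher (2 with TPM as deposited), among them the E1 enzyme UBA1 (0.47, limma adjusted p = 9.12e-06).

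**Figure D3:**
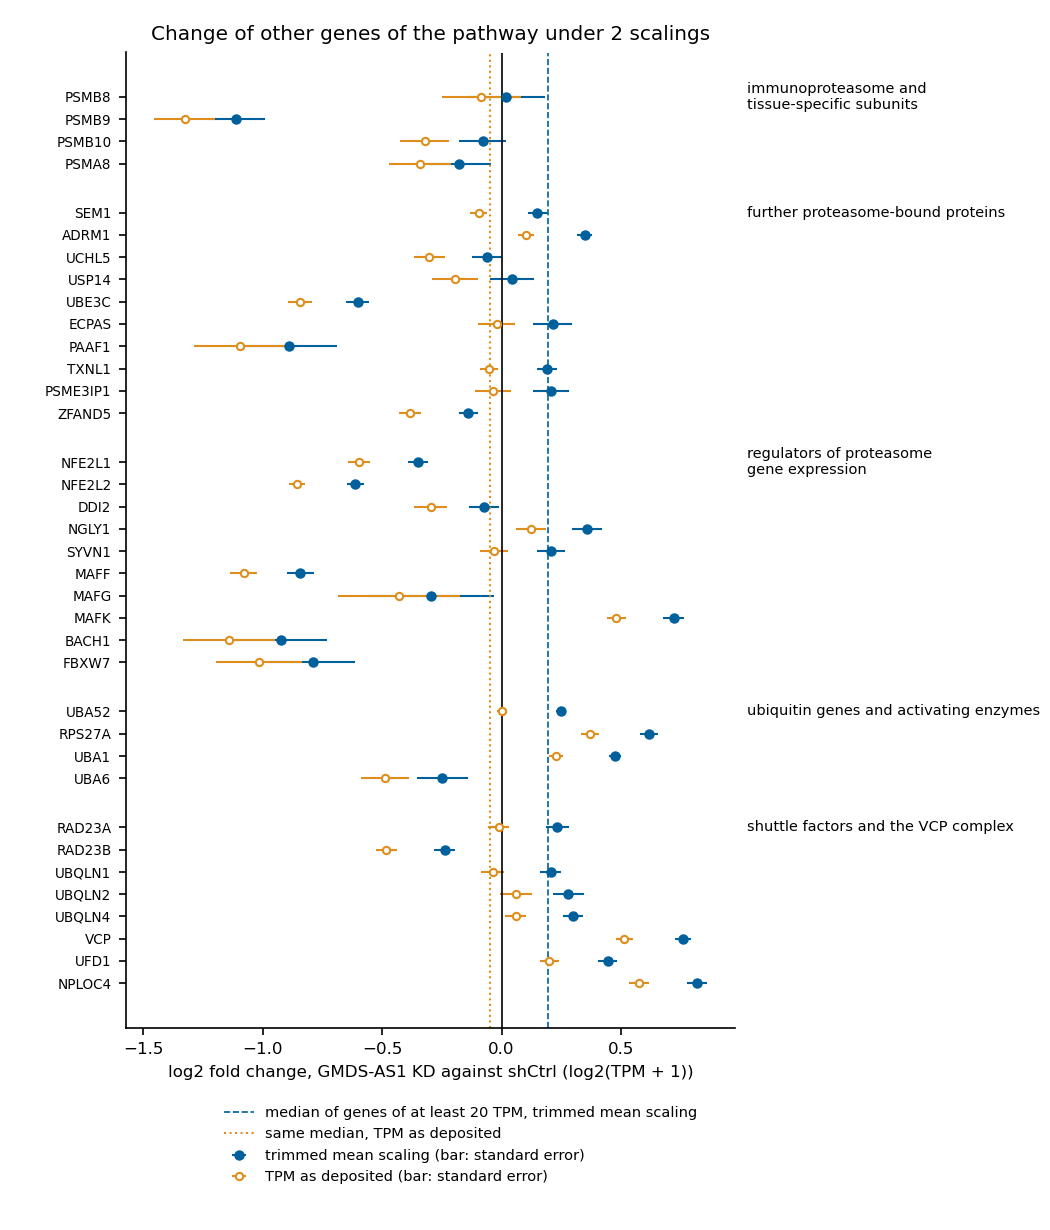
Log2 fold change of KD against shCtrl for the tested genes of the 5 pathway lists after trimmed mean scaling (filled) and with TPM as deposited (open), with standard errors as bars and the median of the genes of at least 20 TPM as a vertical line for each scaling. PSMB9 lies at -1.11, NFE2L1 at -0.35 and VCP at 0.76 after trimmed mean scaling.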

How the data were processed

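The authors prepared TruSeq poly-A libraries, sequenced them in read pairs and, per their methods, evaluated expression with Cufflinks and RSEM. Their processing notes name Trimmomatic 0.27 and TopHat2 2.1.1 and the build GRCh38.p13, and the annotation is not given in the sources used here. The authors deposited TPM per Ensembl gene without further scaling between libraries. TPM keeps no read total, so depth and counting error are unknown, and the precision rests on the 3 libraries of each group. Lines of 2 genes hold no value and were left out.

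Groups were taken from the sample titles. A gene was tested if 3 or more libraries had 0.5 TPM or more. Scaling used the trimmed mean method on TPM (30% of log ratios and 5% of means trimmed, no weights). A pseudocount of 1 was added, and log2 values were compared in R 4.3.3 by limma 3.58.1 (variance trend, no replicate block), with the Benjamini-Hochberg adjustment over 16901 genes. The script was tested on simulated data. On this scale a fold change understates that of low genes. Ratios within a library were compared by exact permutation tests in Python 3.11.15 with scipy 1.17.1. Positions come from GENCODE v29 and promoter sequences from RefSeq.

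The proteasome genes and all lists were chosen with earlier results of these data known. By rule, certain genes are given at least a log2 fold change with its adjusted p. They are the catalytic subunits, the 4 largest rises, the called falls and the genes whose call changes with the scaling. The pathway genes past a 2-fold change, PSMB8, PSMB9, PSMB10, NFE2L1, GMDS-AS1 and GMDS also belong to them. Library values and standard errors are printed for some of these genes and not for all. Alternatives covered scaling, pseudocount, filter, variance trend, replicate block, threshold and leaving out each library. No 2 libraries held identical values.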

Additional observations from a re-analysis of the deposited data

How the results depend on the processing

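With TPM as deposited, 8 proteasome genes were lower in place of 3, with 6 under upper-quartile scaling, 7 when scaled on the abundant genes (chosen after seeing the data) and 5 with at least 1 TPM required in every library. Their median log2 fold change of 0.45 was 0.20, 0.36 and 0.25 under the first 3 of these. A 2-fold threshold left 0 proteasome genes in either direction, and 0 higher and 1 lower pathway gene in place of 16 and 10. Of the pathway genes 7 were higher with TPM as deposited and 7 when scaled on the abundant genes. The directions that turned were those of PSMA4 (from 0.027 to -0.22 as deposited, -0.063 upper-quartile, -0.024 with at least 1 TPM in every library, -0.17 on abundant genes), PSMB5 (-0.036 as deposited), PSMD1 (-0.084 as deposited, -0.039 on abundant genes), PSMD8 (-0.068 and -0.024 in the same order), PSMD11 (-0.096 and -0.052), POMP (-0.14 and -0.091), PSMG3 (-0.043 as deposited), PSMB1 (0.023 without the filter) and PSMB8 (-0.084 as deposited, -0.021 upper-quartile, -0.066 on abundant genes). Part of this follows from the scaling itself, which sets a common shift for all genes. With any single library left out there were 34 to 35 higher and 3 to 4 lower proteasome genes, and log2 fold changes of -0.0012 to 0.042 for PSMA4, -0.043 to 0.0016 for PSMB1, -0.072 to 0.15 for PSMB8 and -0.16 to 0.025 for PSMB10, a log2 difference of -0.34 to 0.17 for PSMB8 against PSMB5, and -0.52 to -0.30 for GMDS-AS1. With the ratio of TPM + 1, PSMB9 against PSMB6 differed by -1.38. GMDS-AS1 was at -0.39 (adjusted p = 0.149 from limma) without the filter, and it could not be fitted with at least 1 TPM in every library.

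With the replicate number as a block, 36 proteasome genes were higher and 3 lower and none of the 44 changed its call, and GMDS-AS1 was at -0.41 with an adjusted p of 0.0518 from limma. Libraries with the same number did not deviate together, since their deviations from the group means had a Pearson's r of 0.029, -0.038 and 0.014. The labels do not say whether equal numbers mark a pair, and 3 such correlations cannot settle it. TPM without read totals, 3 libraries per group, 1 shRNA and RNA alone limit these results, and protein and activity of the proteasome were not measured here.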
